A study of Mus musculus with 9 samples.

Results

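The nuclear genes of oxidative phosphorylation were taken from the gene expression table of sorted mouse splenic B cells as the rows whose symbols name a subunit or a namesake factor of complexes I to V. These symbols began with Nduf (a, b, c, s or v), Uqcr, Cox4 to Cox8 or Atp5, or were Sdha, Sdhb, Sdhc or Sdhd. Of 24459 rows, 92 matched, and 85 averaged 0.5 FPKM or more across the libraries and form the set (11597 rows in all reached that level). FPKM is a fragment count divided by transcript length and library size, so levels of different genes can be compared per length. By complex, the set held 43 genes of complex I, 4 of complex II, 8 of complex III, 14 of complex IV and 16 of complex V.

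The study sorted splenic B cells of naive mice, aged 8 to 10 weeks and labelled C57/BL6, into 3 subsets of 3 libraries each, with the spleens of 5 mice pooled for each sort. FO were follicular cells that were B220+, IgM intermediate, CD21 intermediate, CD23+ and CD93- and high for IgD. BDL were sorted with the same markers but low for IgD, and the study examined them as a regulatory population. MZ were marginal zone cells that were B220+, IgM high, CD21 high, CD23- and CD93-. No treatment or engineered allele was given for any group, and a library is a pool of animals and not a single mouse. The titles carry a code in the form of a date, shared by 1 library of each subset, which the labels do not explain; replicate numbers follow it and it is called the title date here.

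Oxidative phosphorylation is the process by which mitochondria make ATP. Complexes I and II pass electrons from NADH and succinate to ubiquinone, complex III passes them to cytochrome c and complex IV to oxygen, while complexes I, III and IV pump protons that drive ATP synthesis by complex V. Resting B cells keep a modest mitochondrial mass, and lymphocytes are known to expand this machinery when they grow. A few subunits of complexes I, III, IV and V are encoded by the mitochondrial genome itself, and the 13 such genes had no row in the table used here.

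The promoters of 4 of the genes on which the comparisons below turn are shown because nuclear oxidative phosphorylation genes are known targets of the factors NRF1, GABP (an ETS factor), YY1 and ERR alpha. Each is the 250 bases before the RefSeq start (GRCm38.p6), read 5′ to 3′ on the strand of the gene, and each matched the NCBIM37 genome, the sequence of mm9, at a single place and outside every annotated exon. Capitals mark a motif on either strand. The stretches were chr19:3912775-3913024 (minus strand) for Ndufs8, chr2:73749384-73749633 (minus) for Atp5g3, chr15:102501479-102501728 (minus) for Atp5g2 and chr9:108838411-108838660 (plus) for Uqcrc1.
Ndufs8: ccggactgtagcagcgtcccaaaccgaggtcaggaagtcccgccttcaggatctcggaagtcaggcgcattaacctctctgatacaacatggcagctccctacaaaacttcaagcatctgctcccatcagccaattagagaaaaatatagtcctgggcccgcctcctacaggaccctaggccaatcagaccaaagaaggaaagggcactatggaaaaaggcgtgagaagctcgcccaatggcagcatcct
Atp5g3: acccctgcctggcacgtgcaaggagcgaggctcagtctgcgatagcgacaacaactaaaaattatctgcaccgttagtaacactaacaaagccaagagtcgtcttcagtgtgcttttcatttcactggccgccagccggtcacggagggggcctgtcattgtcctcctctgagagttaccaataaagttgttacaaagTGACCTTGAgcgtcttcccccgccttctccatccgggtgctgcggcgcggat
Atp5g2: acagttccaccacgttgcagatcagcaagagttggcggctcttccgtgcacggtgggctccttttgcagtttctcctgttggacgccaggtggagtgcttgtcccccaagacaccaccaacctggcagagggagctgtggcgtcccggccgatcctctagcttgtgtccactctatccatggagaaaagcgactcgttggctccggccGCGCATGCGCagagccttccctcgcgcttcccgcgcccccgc
Uqcrc1: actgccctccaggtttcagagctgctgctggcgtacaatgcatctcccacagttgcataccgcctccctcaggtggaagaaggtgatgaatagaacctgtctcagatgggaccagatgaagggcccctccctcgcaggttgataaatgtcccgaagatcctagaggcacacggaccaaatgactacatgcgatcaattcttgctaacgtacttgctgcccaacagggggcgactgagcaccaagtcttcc

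The Atp5g3 stretch held the ERR alpha motif TCAAGGTCA on the opposite strand and the Atp5g2 stretch the NRF1 motif, whereas the Ndufs8 and Uqcrc1 stretches held none of the 4 motifs. The NRF1 motif was searched as the capitals of the Atp5g2 stretch with any base at the sixth position. A window was found for 73 of the 85 genes. The NRF1 motif occurred in 13 of the 73 windows, 17.8%, against 4.23% of the windows of all 27025 genes and 10.1% of those of 8892 tested genes. The ETS motif CCGGAAG occurred in 13 windows, 17.8%, against 7.83% of all windows and 17.1% of those of tested genes, so its share was close to that of expressed genes in general. The YY1 motif AAGATGGCG was found in 2 windows (Atp5sl and Atp5j), 2.74% against 0.710% of all and 1.57% of those of tested genes. The ERR alpha motif was found in 1, 1.37% against 0.422% and 0.326%. Sdhd, Cox6a1 and Atp5h held both an NRF1 and an ETS motif. The Sdhd window overlaps an exon of the neighbouring gene Timm8b and is not printed. The median log2 difference between BDL and FO was 0.24 for members with the NRF1 motif and 0.30 for those without it, and 0.33 and 0.28 for the ETS motif. A match is a description of sequence only.

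Marker genes set MZ apart from both other subsets. The gene for IgD was not among the markers, so the BDL label was not checked against FO. None of the 6 B cell identity genes (Cd79a and others) passed the test in any comparison. With the title date as a replicate block, 1 did in BDL against FO, 2 in BDL against MZ and 3 in MZ against FO. At an adjusted p under 0.05 without the block, 6 of 7 marginal zone genes were higher in MZ than in FO (85.7%, against 14.3% of all rows). At the same threshold 3 of 4 follicular genes were lower in MZ (75%, against 12.8%). In BDL against MZ, 6 of 7 marginal zone genes were lower (85.7%, against 11.6% of all rows) and 3 of 4 follicular genes higher (75%, against 16.5%). Against FO, 2 of 7 marginal zone genes (28.6%, against 6.04% of all rows) and 14 of 20 tested proliferation genes (70%) were higher in BDL. No gene of these 2 lists was lower in BDL than FO at that threshold. By sign, 4 of the 7 marginal zone genes were higher and 3 lower. With the replicate block 2 were higher (15.6% of all rows were) and 2 lower (4.93% of all rows were). The summed FPKM of the 7 marginal zone genes was 329 to 353 in FO, 297 to 320 in BDL and 1055 to 1282 in MZ. The summed FPKM of the 22 proliferation genes was 154 to 166 in FO, 208 to 230 in BDL and 186 to 199 in MZ. The summed FPKM of the erythroid markers was 4.30 to 7.90 in FO, 18.3 to 20.2 in BDL and 6.16 to 10.2 in MZ. All 4 tested erythroid rows were higher in BDL than FO, by a median log2 difference of 1.24, and 2 passed (50%, against 6.04% of all rows). Alas2, at most 0.305 in any library, was under the minimum and not among them. The sum of 8 T cell markers was 10.4 to 11.9, 19.5 to 24.8 and 8.15 to 14.2, of which Lck made up most, and Cd3e, Cd3g and Cd4 were at most 0.406, 0.607 and 0.262 in any library. Myeloid markers summed to 2.69 to 9.50 in FO, 6.27 to 12.6 in BDL and 3.67 to 11.6 in MZ, NK cell markers to 2.35 to 6.87, 2.37 to 5.11 and 6.61 to 11.3, and plasma cell markers to 186 to 223, 128 to 207 and 224 to 296. Among tested rows, 2 of 5 myeloid, 1 of 2 T cell and 1 of 5 plasma cell markers were higher in BDL than FO. These shares were 40%, 50% and 20%, against 6.04% of all rows. The part of these other cells and of dividing cells in the differences below was not tested, and in bulk samples fewer cells of a type and less RNA per cell cannot be told apart.

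The highest mean over the 9 libraries belonged to Atp5e, the epsilon subunit of the ATP synthase head, at 210 FPKM, followed by the catalytic beta subunit Atp5b at 203 and the complex IV subunit Cox4i1 at 199. Uqcrh, the hinge protein of complex III, was at 185 and Ndufa3, an accessory subunit, was the highest of complex I at 143. The median member stood at 33.9 FPKM in complex I, 37.7 in complex II, 61.1 in complex III, 114 in complex IV and 111 in complex V. The lowest members were Cox6b2 at 0.582, Cox7a1 at 1.48, Ndufaf5 at 2.56, Ndufaf6 at 3.03 and Atp5s at 3.12. Cox6b2 was the only member that reached the minimum through 1 subset, BDL.

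**Figure D1:**
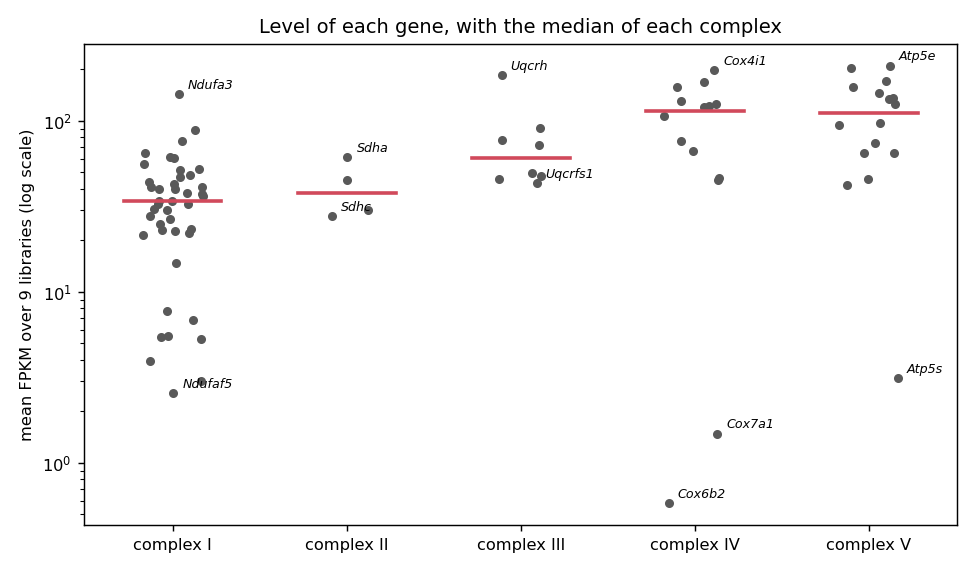
Mean FPKM over 9 libraries (log axis) of the 85 genes, one point per gene, with a red bar at the median of each complex. Complexes IV and V lie highest, at medians of 114 and 111, and Cox6b2 and Cox7a1 stand apart below the rest of complex IV.

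Paralogues of the same subunit differed widely. Cox4i1, Cox6a1, Cox6b1, Cox7a2 and Cox8a, the forms used by most tissues, had means of 199, 126, 130, 46.3 and 170 FPKM. Their counterparts Cox4i2, Cox6a2 and Cox8b were at 0.0032, 0.0563 and 0.191 FPKM, and Cox7b2 and Cox8c were listed at 0 in every library. Ndufa4, now known as a complex IV subunit, had 120 FPKM and Ndufa4l2 0.00737. Cox7a2l, the supercomplex factor, had 158 FPKM. The 3 genes for the identical mature c subunit of ATP synthase stood at 42.0 for Atp5g1, 171 for Atp5g2 and 126 for Atp5g3. Below the minimum of 0.5 were Cox8b, Cox6a2, Ndufa4l2, Ndufs5, Cox4i2, Cox7b2 and Cox8c, and just above it Cox6b2, Cox7a1 and Ndufaf5. Ndufs5, an accessory subunit that all cells with complex I are thought to need, was listed at 0.000154 to 0.0219 FPKM, so its row gives no usable level.

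Most of the genes were higher in BDL than in FO. Of the 85, 79 had a positive log2 difference (92.9%, against 56.6% of the 11597 rows tested), and the median difference was 0.30, a fold of 1.23, against 0.05 over all rows. In 59 of them every BDL library was above every FO library (69.4% against 24.4% of all rows), and the single gene with every BDL library below FO was the assembly factor Ndufaf2 (1.18% against 10.3%). Each gene alone seldom passed the test. In limma on log2(FPKM + 0.1) with Benjamini-Hochberg adjustment over all rows, 5 rose (5.88%, against 6.04% of all rows) and 0 fell (1.68% of all rows), so the share that passed was no higher than the background. At an unadjusted p under 0.05, 41 were higher (17.5% of all rows were) and 0 were lower. With the title date as a replicate block, 32 rose (37.6%, against 15.6% of all rows) and 0 fell (4.93%), and the 5 were among them. With the study's added condition of a fold of at least 2, none passed (1.64% of all rows did). The count of 5 became 0 without FO replicate 1, 2 or 3 or without BDL replicate 1, 2 without BDL replicate 2, 1 without BDL replicate 3, 3 without MZ replicate 1 or 2, and 14 without MZ replicate 3. The share of all rows passing without each library is not given here. These counts therefore do not set the genes against the background.

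The 73 structural subunits, which leave out the 8 complex I assembly factors, the tissue-restricted Cox6b2 and Cox7a1, Cox7a2l and Atp5s, were all higher in BDL than in FO, by 0.02 to 0.69 on the log2 scale with a median of 0.32. By complex, the median log2 differences were 0.24 for complex I, 0.29 for complex II, 0.37 for complex III, 0.30 for complex IV and 0.40 for complex V. Within same-date pairs of libraries the median over the 85 was 0.28, 0.19 and 0.39, so all 3 had the same sign and replicate 3 had the largest value. With a correction for transcript length and GC content the median over the 85 was 0.22, and it exceeded that of all rows by 0.16 in place of 0.25.

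**Figure D2:**
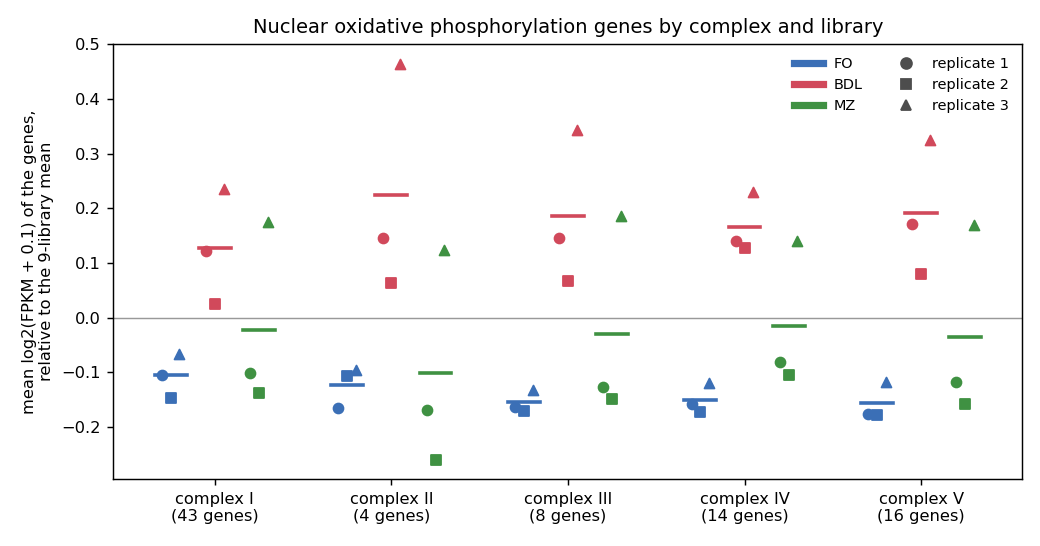
Mean of log2(FPKM + 0.1) of each complex in each of the 9 libraries, relative to the mean over all libraries. Marks show replicates (title dates), bars the mean of each subset. FO libraries lie below 0 in every complex, BDL libraries above it, and MZ replicate 3 lies above the other 2.

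The library means show where the spread lies. Over the 85 genes, the mean deviation from the 9-library mean was -0.14, -0.16 and -0.09 in FO replicates 1 to 3, 0.14, 0.06 and 0.27 in BDL and -0.11, -0.14 and 0.17 in MZ. No BDL library fell within the range of FO, while MZ replicate 3 lay above BDL replicates 1 and 2. The summed FPKM of the 85 genes was 1.08% to 1.09% of the library's total in FO, 1.20% to 1.44% in BDL and 1.01% to 1.21% in MZ.

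Of the 5 that passed, Sdhd, a membrane anchor of succinate dehydrogenase, changed most. It lies at chr9:50404443-50411954 on the minus strand (GENCODE M1, mm9, as all gene positions here). Its FPKM was 22.6, 24.2 and 22.8 in FO, 35.6, 33.4 and 44.4 in BDL and 27.8, 25.7 and 33.3 in MZ. Every BDL library was above every MZ library and every MZ library above every FO library, and BDL exceeded FO 1.62-fold (log2 difference 0.69 ± 0.13 SE, adjusted p = 0.0193 in limma). The catalytic Sdha, the iron-sulfur Sdhb and the anchor Sdhc were higher in BDL by 0.11, 0.31 and 0.28 on the log2 scale, and none passed the test against FO.

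In complex I the genes that rose without the block were core subunits. Among them Ndufs8, which carries iron-sulfur clusters, had 46.8, 42.0 and 46.9 FPKM in FO, 64.3, 57.5 and 69.5 in BDL and 44.0, 41.4 and 53.7 in MZ. BDL lay above both other subsets without overlap (against FO 0.49 ± 0.12, adjusted p = 0.0451 in limma). All 28 accessory subunits were higher in BDL with a median of 0.32, and none passed although 11 had an unadjusted p under 0.05. The 8 assembly factors had a median of -0.00, with 4 higher and 4 lower, of which none passed and 1, Ndufaf1, had an unadjusted p under 0.05. With the replicate block 3 core subunits, 9 accessory subunits and 1 assembly factor, Ndufaf1, rose.

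In complex III the accessory subunit Uqcrq (chr11:53241424-53244333) rose from 62.2, 60.0 and 66.2 FPKM in FO to 90.9, 82.6 and 91.6 in BDL, and was 72.5, 76.1 and 93.7 in MZ. The BDL and FO libraries did not overlap (0.49 ± 0.11, adjusted p = 0.0345 in limma). Of the other 7 members, Uqcrfs1, the Rieske protein, and Uqcr10 were higher by 0.42 and 0.51. In 7 of the 8 members all BDL libraries were above FO (24.4% of all rows were). With the replicate block 5 members rose (15.6% of all rows did). In complex IV no member passed. Its 11 ubiquitous subunits were all higher, by 0.17 to 0.46, and 10 of the 14 members had an unadjusted p under 0.05, and 5 rose with the replicate block. Of the tissue-restricted forms, Cox7a1 differed by -0.40 ± 0.30 and did not pass. Cox6b2 had 0.435 ± 0.10 FPKM (SD, n = 3) in FO, 0.979 ± 0.34 in BDL and 0.332 ± 0.17 in MZ, and since its BDL level alone brought it over the minimum, its differences are a description only.

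In complex V, the gene that rose was Atp5g3 of the c ring. It had 102, 106 and 110 FPKM in FO, 148, 140 and 169 in BDL and 112, 111 and 136 in MZ, and was higher in BDL than FO by 0.52 ± 0.11 (adjusted p = 0.0302 in limma). Atp5g1 and Atp5g2 were higher by 0.50 and 0.47 with no overlap of libraries, and neither passed (adjusted p = 0.0776 and 0.0532 in limma), while both passed with the replicate block (0.0125 and 0.0255), under which 8 members of complex V rose. The medians of the other groups were 0.44 for the F1 head and central stalk, 0.40 for the peripheral stalk and 0.24 for the membrane subunits. Atp5s, a coupling factor, differed by -0.05.

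**Figure D3:**
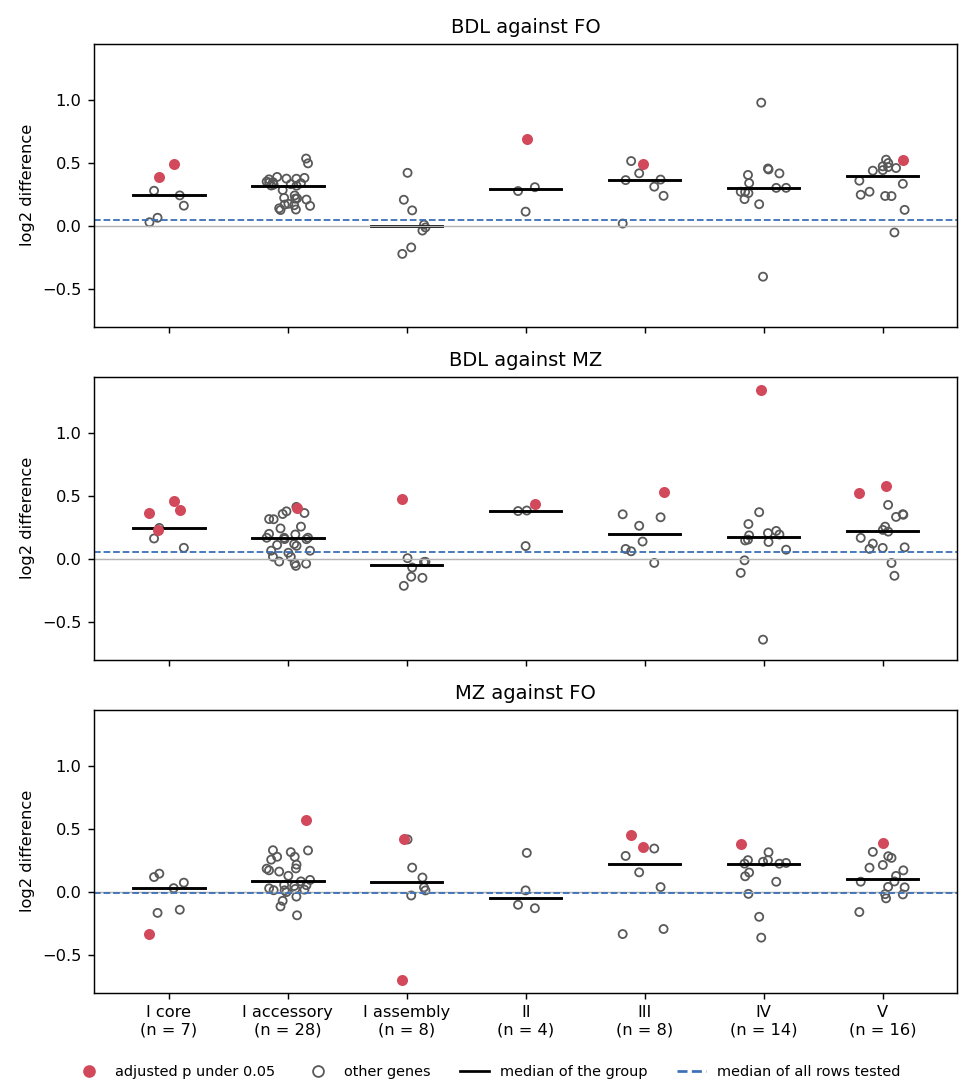
Log2 difference of each gene in the 3 comparisons, grouped by complex and role, with black bars at group medians, filled points for an adjusted p under 0.05 and a dashed line at the median of all rows tested. In BDL against FO the subunit groups lie above the dashed line with medians of 0.24 or more and the complex I assembly factors around 0.

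Against MZ, the BDL libraries were higher in 69 of the 85 genes (81.2%, against 55.6% of all rows) and lower in 16 (18.8%, against 44.2%), with a median of 0.17 against 0.06 over all rows. Here 11 rose (12.9%, against 16.5% of all rows) and 0 fell (11.6% of all rows) at an adjusted p under 0.05, and 27 were higher and 0 lower at an unadjusted p under 0.05 (23.8% and 16.1% of all rows). All BDL libraries were above all MZ libraries in 19 (22.4%, against 22.6%) and below them in 1 (1.18%, against 16.4%), Ndufaf4. With the replicate block 28 rose (32.9%, against 26.2%) and 0 fell (16.5%). The share that passed was below the background, so the count alone does not set the genes apart. The same-date medians were 0.23, 0.17 and 0.11. The pooled median of 0.17 became 0.063 with upper quartile scaling and 0.055 with quantile normalization, where that of all rows was -0.04 and 0.04. The pooled median was 0.28 without MZ replicate 3, and 0.10 without BDL replicate 3 or MZ replicate 2. The 11, the 27 and the 28 include Cox6b2, which reached the minimum through BDL and whose differences are a description only. At a minimum of 1 FPKM, 10 rose. The count of 11 became 2 without MZ replicate 1, 3 without MZ replicate 2, 26 without MZ replicate 3, 5 without BDL replicate 1 or 3, and 6 or 7 without an FO library. Again no share of all rows is given for these omissions, so the counts are not set against the background.

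All 7 core subunits of complex I were higher in BDL than in MZ and 4 passed (16.5% of all rows did): Ndufs1, Ndufs7, Ndufs8 and Ndufv1. Ndufs7 (chr10:79711866-79719539), an iron-sulfur subunit, had 42.1, 38.1 and 39.7 FPKM in FO, 42.0, 40.4 and 39.7 in BDL and 30.8, 30.8 and 33.5 in MZ. Its BDL and FO libraries overlapped and both lay above MZ, by 0.36 ± 0.07 (adjusted p = 0.00785 in limma) for BDL. Ndufv1, which binds NADH, was higher by 0.38 ± 0.10, Ndufs8 by 0.46 ± 0.12 and Ndufs1 by 0.23 ± 0.07.

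Of the other genes that rose over MZ, Uqcrc1, a core subunit of complex III, had 51.1, 47.3 and 51.0 FPKM in FO, 58.8, 53.2 and 64.8 in BDL and 38.2, 37.5 and 46.4 in MZ. MZ lay below both other subsets, and BDL was higher than MZ by 0.53 ± 0.11 (adjusted p = 0.00861 in limma). Atp5a1, the alpha subunit of the ATP synthase head, had 122, 125 and 136 FPKM in FO, 165, 165 and 228 in BDL and 114, 110 and 148 in MZ (0.58 ± 0.16, adjusted p = 0.0303). BDL replicate 3 stood well above the other 2. Atp5o of the peripheral stalk rose by 0.52 ± 0.16, Sdhb by 0.44 ± 0.13 and the accessory subunit Ndufb7 by 0.40 ± 0.11. Apart from Cox6b2, whose differences are a description only, no member passed with a fold of at least 2 (3.47% of all rows did, and 4.34% in the other direction).

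Between MZ and FO, 64 of the 85 genes were higher in MZ (75.3%, against 48.6% of all rows), by a median of 0.11 against -0.01. Only 6 rose (7.06%, against 14.3% of all rows) and 2 fell (2.35%, against 12.8%), and 21 genes had all MZ libraries above FO (24.7%, against 23.6%) and 5 below (5.88%, against 22.5%). At an unadjusted p under 0.05, 11 were higher and 5 lower (19.4% and 18.4% of all rows), and at a fold of at least 2 none passed in either direction (5.54% and 3.39% of all rows). With the replicate block 14 rose (16.5%, against 19.7%) and 4 fell (4.71%, against 19.1%). The same-date medians were 0.03, 0.00 and 0.27, so the pooled median came mainly from replicate 3, and it was 0.02 without MZ replicate 3. With the correction for transcript length and GC content it was also 0.02, above all rows by 0.03 in place of 0.12. The count of 6 became 0 without FO replicate 1 or 3, 2 without FO replicate 2 or MZ replicate 3, and 3 without BDL replicate 1 or MZ replicate 1, and the count of 2 became 4 without MZ replicate 3. No share of all rows is given for these omissions either, so the counts are not set against the background.

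Ndufc2 (chr7:104548513-104556312), an accessory subunit of complex I, rose most. It had 22.1, 24.0 and 23.3 FPKM in FO and 33.0, 30.6 and 40.5 in MZ (0.57 ± 0.14, adjusted p = 0.0182 in limma), with BDL at 32.7, 28.9 and 39.9. The others that rose were the assembly factor Ndufaf4 (0.42), Uqcr10 (0.45) and Uqcrq (0.35) of complex III, Cox8a (0.38) of complex IV and Atp5g2 (0.39) of the c ring. The 2 that fell were Ndufs7, by 0.33, and Atp5sl, by 0.70. Atp5sl (chr7:26404433-26410570), known for a role in complex I assembly, had 52.8, 43.0 and 49.2 FPKM in FO, 49.6, 42.7 and 33.1 in BDL and 31.7, 29.3 and 28.0 in MZ (-0.70 ± 0.15, adjusted p = 0.00997 in limma). MZ lay below both other subsets, the 3 BDL libraries spread from 33.1 to 49.6, and BDL exceeded MZ by 0.48 ± 0.15.

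**Figure D4:**
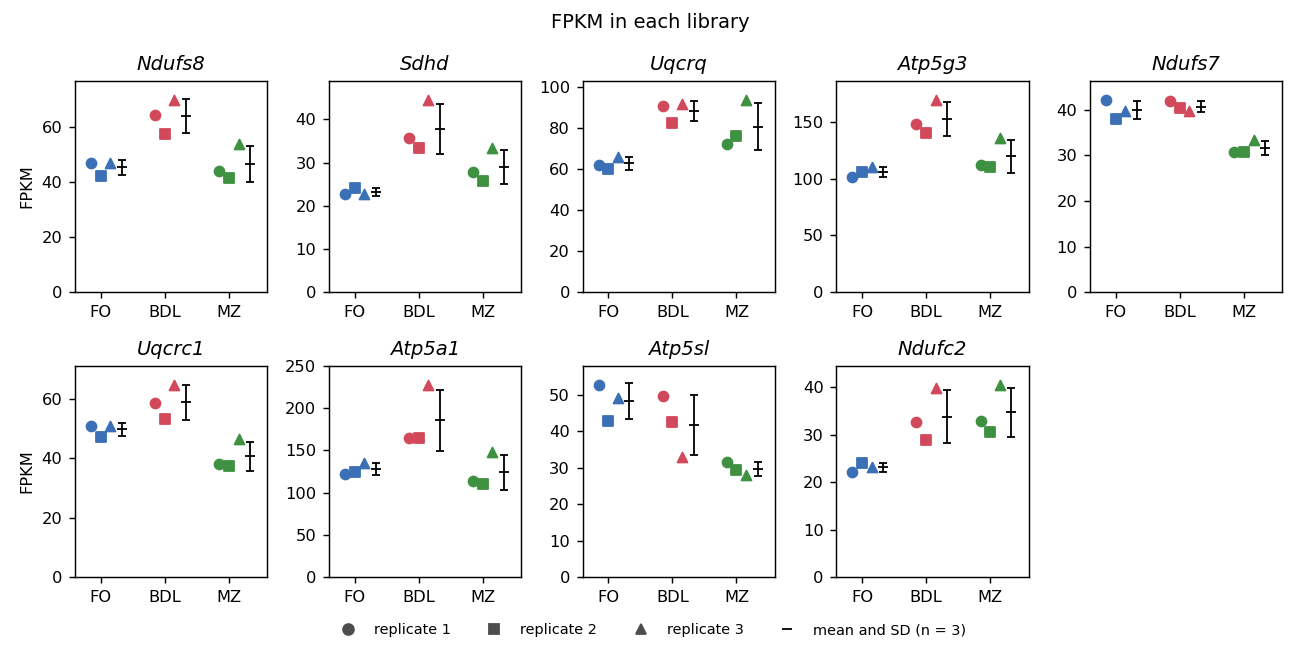
FPKM of 9 genes in each library (axes start at 0), with the mean and SD of each subset (n = 3) in black. For Sdhd the BDL libraries at 33.4 to 44.4 lie above all FO libraries at 22.6 to 24.2, and for Ndufs7 the MZ libraries at 30.8 to 33.5 lie below both other subsets.

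Among the 8 assembly factors, Ndufaf1 was higher in BDL by 0.42 and in MZ by 0.42 over FO, with no overlap of libraries and neither passing, while both passed with the replicate block (adjusted p = 0.0091 and 0.00293 in limma). Ndufaf2, Ndufaf3, Ndufaf5 and Ndufaf7 differed between BDL and FO by -0.17, 0.01, -0.01 and -0.04, and Ndufaf4 and Ndufaf6 by 0.21 and 0.12. They were also expressed low, with means of 2.56 to 7.71 FPKM except Atp5sl at 39.9.

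**Figure D5:**
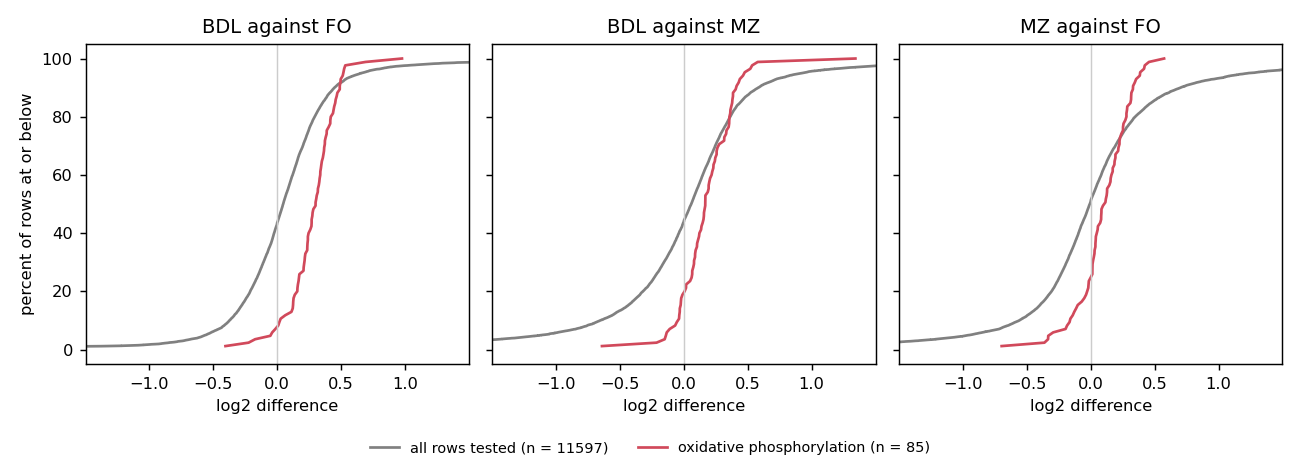
Percent of rows at or below each log2 difference, for the 85 genes (red) and all 11597 rows tested (grey), with the extremes of the axis not drawn. In BDL against FO the red curve lies to the right of the grey one up to about 0.5 and the members span -0.40 to 0.98, while MZ against FO gives curves that cross near 0.2.

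Genes around the pathway were followed from lists. Of 33 tested assembly factors with other symbols, 27 were higher in BDL than FO with a median of 0.20, and 1 rose (3.03%, against 6.04% of all rows), Uqcc2 of complex III (0.48 ± 0.11, adjusted p = 0.0399 in limma). With the replicate block 5 rose (15.2%, against 15.6%). In MZ against FO, Sdhaf1 and Tmem70 rose and Cox20 fell by 0.37. Of 14 genes for cytochrome c, adenine nucleotide and phosphate exchange and the ATP synthase inhibitor, all were higher in BDL than FO, by a median of 0.30. Among them 2 rose (14.3%, against 6.04% of all rows), or 6 with the replicate block (42.9%, against 15.6%). Slc25a4, an ADP/ATP carrier, had 28.1, 30.7 and 30.2 FPKM in FO, 50.7, 47.2 and 55.5 in BDL and 70.5, 67.2 and 82.5 in MZ. The subsets did not overlap and were ordered FO, BDL, MZ (BDL over FO 0.78 ± 0.10, adjusted p = 0.00423 in limma; MZ over FO 1.30). Ucp2, an inner membrane carrier, rose by 0.63 ± 0.13 in BDL over FO. Against MZ, Ucp2 and Cyc1, cytochrome c1, rose by 0.43 and 0.32 in BDL and Slc25a4 fell by 0.52.

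Of 16 genes of the tricarboxylic acid cycle, 15 were higher in BDL than FO with a median of 0.22; none passed and 3 had an unadjusted p under 0.05 (18.8%, close to the 17.5% of all rows). With the replicate block 4 rose in BDL over FO (25%, against 15.6% of all rows). Over MZ, 10 rose with it (62.5%, against 26.2%) and 3 without it (18.8%, against 16.5%). Against MZ, Fh1 (fumarase) and Idh3g rose by 0.80 and 0.35 in BDL and Dlst fell by 0.51. Of 14 regulators of mitochondrial biogenesis, 13 were tested. In BDL against FO none of them passed and none had an unadjusted p under 0.05, with a median of -0.06, and none passed with the replicate block. Against FO, MZ had higher Myc (1.76 ± 0.14), at 380, 390 and 518 FPKM in MZ, 109, 106 and 102 in BDL and 121, 141 and 116 in FO. Nrf1, Gabpb1 and Polrmt were lower in MZ than FO by 0.52, 0.49 and 0.33, and Nrf1 and Gabpb1 were higher in BDL than MZ by 0.46 and 0.52. Gabpa, Gabpb2, Yy1, Tfam, Tfb1m, Tfb2m, Esrra, Pprc1 and Ppargc1b did not pass in any comparison without the block, and Ppargc1a was at 0.361 FPKM, under the minimum.

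Of 77 mitochondrial ribosomal proteins tested, 74 were higher in BDL than FO with a median of 0.30 and 4 rose (5.19%, against 6.04% of all rows), among them Mrpl20 and Mrpl23. Against MZ, 67 were higher in BDL with a median of 0.23 and 13 rose (16.9%, against 16.5% of all rows), among them Mrpl49 and Mrps28. With the replicate block 36 rose over FO (46.8%, against 15.6%) and 38 over MZ (49.4%, against 26.2%). In MZ against FO, Mrpl52 and Mrps34 rose and Mrpl38 and Mrps25 fell. For the rows with symbols beginning Rpl or Rps, 91 of 97 were higher in BDL than FO by a median of 0.25. Rps27l and Rps6ka1, a kinase, rose (2.06%, against 6.04% of all rows). The replicate block gave 7 that rose (7.22%, against 15.6%) and 1 that fell (4.93% of all rows did). Against MZ, 83 of 97 were lower in BDL with a median of -0.13. The kinase rows Rps6ka1, Rps6ka2, Rps6ka5 and Rps6kc1 and Rps19bp1 are also caught by these symbols and are not ribosomal proteins. Rplp1 was among the 31 that rose in MZ over FO (32.0%, against 14.3% of all rows).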

How the data were processed

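RNA was sequenced from 9 libraries of FO, BDL and MZ cells, 3 of each. The authors aligned reads to mm9 with TopHat2 2.1.0 and deposited FPKM values by Cufflinks; the versions of the other tools were not given in the sources used here. The labels and the methods differ on the strain (C57/BL6 or B10.PL) and on the library kit being strand-specific. A table of the authors' own Cuffdiff comparisons was not used.

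The 11597 of 24459 rows averaging 0.5 FPKM or more were tested with limma 3.58.1 (R 4.3.3) on log2(FPKM + 0.1), one term for subset over all 9 libraries, eBayes with a trend, and Benjamini-Hochberg adjustment over all rows. "Rose" and "fell" mean an adjusted p under 0.05, and differences are on this log2 scale with limma's SE. Whole reads could not be recovered: in transcripts of at least 3000 nt, 67.5% to 74.8% of low values were whole multiples of a step within 0.1, so depth is only relative (0.908 to 1.21 of FO replicate 1), and no counting interval is given. The column sums were 446033 to 517208 FPKM. Python 3.11.15, pandas 2.3.3 and matplotlib 3.10.9 were used for sequences and plots. Gene positions came from GENCODE M1.

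Replicate numbers were taken to pair libraries because libraries of the same number share a code in the form of a date in their titles, although the labels do not say what was done on that date. The correlation of same-date deviations over all rows was 0.15, -0.06 and 0.05 for BDL with FO. It was 0.10, 0.18 and 0.24 for BDL with MZ and 0.02, 0.01 and 0.01 for MZ with FO. Over the oxidative phosphorylation genes it was 0.58, -0.21 and -0.10 for BDL with FO and 0.44, 0.54 and 0.76 for BDL with MZ. For MZ with FO these genes gave 0.12, -0.19 and 0.06. Their values were thus positive at all 3 title dates for BDL with MZ and of mixed sign otherwise. The fit without the replicate block does not take the title date into account. With 3 libraries against 3, p cannot go below 0.1 in an exact permutation test, so none was run. The p-values measure the spread between libraries from pools of 5 mice, and with the replicate block the spread left after the title date is removed. The labels do not explain the code, so the 3 subsets of a title date may share a pool. Genes named were those passing with the largest differences per complex, the highest and lowest members, paralogue sets, the Sdh genes, assembly factors and the regulators. The members and lists were chosen with earlier results of these data known. The printed promoters and the genes named for a motif were chosen after their values were seen. A few genes that met the naming rule or belong to a list are counted but not reported by name here.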

Additional observations from a re-analysis of the deposited data

How the results depend on the processing

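The 24 member differences that passed kept their sign under 22 alternatives, and they kept their side of the threshold in 378 of 527 cases. Ndufs7 and Uqcrc1 (BDL against MZ) and Atp5sl and Ndufs7 (MZ against FO) passed under all of them. Counts of genes that passed are given as BDL over FO, BDL over MZ, MZ over FO and MZ under FO, which were 5, 11, 6 and 2. With the title date as a replicate block they were 32, 28, 14 and 4, while 15.6%, 26.2%, 19.7% and 19.1% of all rows passed. A correction for transcript length and GC content gave 3, 19, 2 and 3, or 25, 36, 10 and 4 with both. Upper quartile scaling gave 7 and quantile normalization 6 for BDL over MZ, and quantile normalization 13 for MZ over FO. The 6 libraries of a comparison alone gave 2 for BDL over MZ and 3 for MZ over FO. A fold of at least 2 left 0, 1, 0 and 0, where the 1 was Cox6b2, which reached the minimum through BDL. For the other alternatives, including those that leave out 1 library, the share of all rows that passed is not given here. Their counts therefore do not show whether the genes differ from the background. The median difference of BDL against MZ was 0.17, but 0.063 under upper quartile scaling and 0.055 under quantile normalization. It exceeded the median of all rows by 0.11, 0.10 and 0.01 in turn, so under upper quartile scaling that excess hardly changed. The cause was not tested.

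Leaving out 1 library gave 0 to 14 for BDL over FO, 2 to 26 for BDL over MZ, 0 to 8 for MZ over FO and 2 to 4 for MZ under FO. BDL over FO had 0 without FO replicate 1, 2 or 3 or BDL replicate 1, and 14 without MZ replicate 3, while BDL over MZ had 26 without MZ replicate 3. The medians ranged from 0.22 to 0.37, 0.10 to 0.28 and 0.02 to 0.16, the last at its lowest without MZ replicate 3. Genes with an adjusted p just under the threshold, such as Ndufs8 in BDL against FO (adjusted p = 0.00879 to 0.135 in limma over the alternatives), depend on the libraries and settings used. With all 9 libraries, Ndufs8 also did not pass without a minimum FPKM or with the correction for transcript length and GC content.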

Other observations

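The difference between BDL and FO also varied with transcript length over all rows tested. Its median was 0.22 for 634 rows with transcripts of up to 1 kb, 0.11 for 2195 rows of 1 to 2 kb, 0.05 for 4164 rows of 2 to 4 kb and 0.01 for 2934 longer rows. The oxidative phosphorylation genes had medians of 0.30 (44 genes), 0.33 (26 genes) and 0.25 (10 genes) in the first 3 of these classes, above the rows of the same class in each. In MZ against FO the medians of all rows were 0.11, 0.02, -0.02 and -0.06, and those of the genes 0.13, 0.13 and 0.02 in the first 3 classes.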
